A study of Mus musculus with 157 samples.

Results

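Mitochondria carry their own ribosome, the mitoribosome, which translates the few mRNAs made inside the organelle, all of them for membrane subunits of the respiratory chain and the ATP synthase. Its ribosomal RNAs are made in the mitochondrion, but each of its proteins is encoded in the nucleus, translated on cytosolic ribosomes and imported. Lymphocytes that leave the resting state enlarge their mitochondria, and building mitoribosomes is a large part of that task. The mRNAs for these proteins were followed here along polysome gradients of activated B cells, in which the position of an mRNA reflects how many cytosolic ribosomes it carries.

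The group was taken by name: every protein coding gene whose symbol begins with Mrpl or Mrps followed by a digit. This gave 75 of the 19600 genes in the table, of which 16519 were protein coding. By textbook assignment 48 of the 75 encode proteins of the large subunit and 26 of the small subunit. The last, Mrps36, keeps a mitoribosomal symbol but is known as a component of the 2-oxoglutarate dehydrogenase complex. The symbols do not always give the subunit: Mrps18a and Mrps30 are placed in the large subunit. The 2 pseudogenes with such names were not included.

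B cells from spleens of C57BL/6Babr mice received LPS at 10 µg/ml for 48 h and were either kept without a further agent (LPS) or given etoposide at 20 µM for 4 h (LPS+ET). Etoposide traps topoisomerase II on DNA and produces double-strand breaks. In the LPS+ET+KU group the cells had 47 h of LPS, then 1 h of KU55933 at 10 µM and then the same etoposide dose. KU55933 inhibits ATM, a kinase that responds to such breaks. All groups thus share LPS activation, and no cells without LPS and none with KU55933 alone were analysed here. Each treatment had 4 gradients of 13 fractions. Fractions 4 to 7 were monosomes, 8 to 10 light polysomes and 11 to 16 heavy polysomes, and 3′ ends of mRNAs were sequenced in each fraction. A gradient is named here by its treatment and by the code in its column name, LUL15 to LUL18. The labels do not say what this code stands for, and it is called the pool here.

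The 156 libraries held 14724 to 4170688 counts, with a median of 811932, and 12 libraries held fewer than 100000. The LPS+ET gradient of pool LUL16 stood apart: its fractions 11 and 12 held only 54686 and 33476 counts against 1501250 in fraction 13, so that sums over its heavy fractions carry little of the front of the heavy polysomes. Fraction 12 was as thin in the LPS gradient of LUL17, with 32306 counts against 1393770 in its fraction 11, and LPS+ET+KU of LUL18 held 262491 there against 4170688 in its fraction 11. Each gradient was left out of every fit in turn, and counts of calls that moved by more than 1.5 times are given below with the gradient named. The etoposide response was checked with Cdkn1a, a p53 target that halts the cell cycle, which had 26.9 ± 4.29 CPM (counts scaled to the same total in every library, mean ± SD, n = 4) in LPS and 722 ± 167 in LPS+ET. The 7 B cell markers summed to 2134 to 2835 CPM in LPS gradients, to 1611 to 2077 CPM in LPS+ET gradients and to 1824 to 2611 CPM in LPS+ET+KU gradients. The 5 T cell markers summed to at most 4.48 CPM in any gradient. The 4 plasma cell markers summed to 301 to 521, 356 to 1066 and 149 to 537 CPM in the same order of treatments, and the 6 myeloid markers to 31 to 85, 45 to 160 and 30 to 120. The part that these shifts have in the results below was not tested. Fewer cells of a type and less RNA per cell cannot be told apart in such bulk samples.

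The promoters are shown first because these genes are spread over the genome and yet are made as the parts of 1 particle. RefSeq promoters of the GRCm38.p6 assembly, from 250 bases before to 50 after the annotated start, were matched for 66 of the 75 genes. A fixed set of short motifs was searched in them on both strands. The ETS-type motif CCGGAAG stood in 23 of the 66 (34.8%), against 9.93% of the 27025 genes with a promoter. The motif bound by NRF1 stood in 12 (18.2% against 5.19%) and the YY1-type motif AAGATGGCG in 8 (12.1% against 1.64%). Nuclear-encoded respiratory chain genes (64 promoters) had shares of 25%, 26.6% and 10.9% in the same order, and cytosolic ribosomal protein genes (60 promoters) had 40%, 10% and 6.67%. CCAAT stood in 40.9% against 41.1% of all promoters and the E-box CACGTG in 7.58% against 8.09%. No promoter held hits of different motifs that shared a base. The 27025 genes were not limited to protein coding or expressed genes, and the part of this in the differences was not tested. A match is a run of letters and not a measured site. Mrpl33 and Mrps23 are shown for the ETS-type motif, Mrpl45 and Mrpl12 for the NRF1-type motif, and Mrpl42 and Mrpl37 for the YY1-type motif, each 5′ to 3′ on the strand of the gene with the motif in capitals (as its reverse complement for Mrps23 and Mrpl12).
Mrpl33, chr5:31613937-31613966, + strand: ccgcgcatgccCCGGAAGtagtcgttgagc
Mrps23, chr11:88204392-88204421, + strand: tgccgcttccgCTTCCGGtaacagcccgag
Mrpl45, chr11:97315585-97315614, + strand: agaagcctcctGCGCAGGCGCagctggctc
Mrpl12, chr11:120484545-120484574, + strand: gtattgtctccGCGCCTGCGCgtcgcaccg
Mrpl42, chr10:95501904-95501933, - strand: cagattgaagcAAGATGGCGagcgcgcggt
Mrpl37, chr4:107066822-107066851, - strand: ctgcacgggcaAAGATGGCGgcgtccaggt

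Cytosolic ribosomal protein mRNAs are known for a terminal oligopyrimidine (TOP) start, a C followed by a run of pyrimidines, through which their translation is regulated as a group. A C with 4 pyrimidines after it stood exactly at the annotated start base in 13 of 60 cytosolic ribosomal protein genes (21.7%), in 3.01% of all genes and in 0 of the 66 mitochondrial ones. Within 5 bases of the start the shares were 46.7%, 21.2% and 24.2%. Annotated starts can miss the true start by a few bases, which limits the exact count. Mrpl45 is among the genes with such a run within 5 bases of the start, and Mrpl33 is not. The starts of Mrpl45 and Mrpl33 are set beside that of Rps6, a cytosolic ribosomal protein, with the annotated start base in capitals.
Mrpl45, chr11:97315706-97315735, + strand: cgcgcgccccTcccctggagagcgtgcgcg
Mrpl33, chr5:31613941-31613970, + strand: gcatgccccgGaagtagtcgttgagctctt
Rps6, chr4:86857348-86857377, - strand: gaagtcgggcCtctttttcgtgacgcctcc

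Together the 75 genes took 0.568% of all counts. Per gradient the share ran from 0.517% to 0.624%, with 0.531% to 0.620% in LPS, 0.529% to 0.624% after etoposide and 0.517% to 0.565% when KU55933 was added. The 3 ranges overlapped. These are shares of summed counts, in which each fraction weighs by the depth of its library. Each mRNA end gives 1 tag in this assay, so levels in CPM can be set between genes without dividing by length. Over all gradients 22 of the genes had a mean of 100 CPM or more, 46 had 10 to under 100 and 7 had under 10. The median was 60.7 CPM, against 14.9 CPM for all genes tested. In 68 of the 75 the counted position lay in a 3′ untranslated exon, and in 58 it lay within 100 bases of an annotated transcript end.

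The highest mean level was that of Mrpl45, which in the assembled particle lies where the mitoribosome meets the inner membrane, with 244 CPM over the 12 gradients. It was followed by Mrpl12 (233 CPM), which also binds the mitochondrial RNA polymerase. Next came Mrpl4 (210 CPM) and Mrpl33 (186 CPM), large subunit proteins with bacterial counterparts, and Mrps23 (185 CPM) of the small subunit. Neighbours in this order did not differ beyond their spread. Mrpl12 had 284 ± 92.4 CPM (SD, n = 4) in LPS gradients, 212 ± 84.4 CPM with etoposide and 204 ± 79.1 CPM with etoposide and KU55933, with pools LUL15 and LUL16 above LUL17 and LUL18 in every treatment. The means of Mrps23 were close between treatments, at 186 ± 2.35, 183 ± 26.5 and 186 ± 36.2 CPM, with a wider spread between gradients after etoposide.

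At the other end, Mrpl23 had 0.152 CPM, Mrps21 0.101 CPM and Mrps18b 0.0513 CPM. These rest on 22, 17 and 9 counts in all 12 gradients. For Mrps21 the counted position lay in an intron, for Mrps18b in a coding exon and for Mrpl23 just outside the annotated gene, so that their ends may have been missed, and no level of the full mRNA is read from them. Mrps36 had 53 counts in all. Of the other paralogues of the bacterial protein S18, Mrps18a had 75.9 ± 10.6 CPM in LPS and Mrps18c 35.7 ± 4.22. In all, 71 of the 75 passed the expression filter for tests between treatments, and the other 4 are described by these counts only.

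Position along the gradient was described after scaling each fraction to CPM, since equal RNA concentrations went into the libraries. Each mRNA then has a share in every fraction, and 69 of the genes had the mean of 100 counts per gradient required for this. In LPS the median mitochondrial ribosomal protein mRNA had 22.7% ± 0.38 of its signal in monosomes, 32.1% ± 4.23 in light and 43.7% ± 3.81 in heavy polysomes (SD of 4 gradients). The medians over 7580 protein coding genes were 19.1%, 21.3% and 56.1%. Cytosolic ribosomal protein mRNAs (58 genes), which code for a particle of the same kind in the other compartment, had 64.2%, 18.8% and 16.1%. Nuclear-encoded respiratory chain mRNAs (72 genes), whose proteins work beside the products of the mitoribosome, had 20.4%, 39.3% and 36.6%. The mitochondrial ribosomal protein mRNAs thus lay close to the respiratory chain mRNAs and far from those of the cytosolic ribosome, as the mean fraction also shows: 10.0, 9.9 and 7.4 in this order, and 10.8 for all protein coding genes. Median coding lengths were 192, 142 and 145 codons in this order, and 436 for all protein coding genes. The part of length in these distances was not tested. Large and small subunit mRNAs had similar heavy shares in LPS, 44.2% ± 3.91 and 42.5% ± 3.71.

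**Figure D1:**
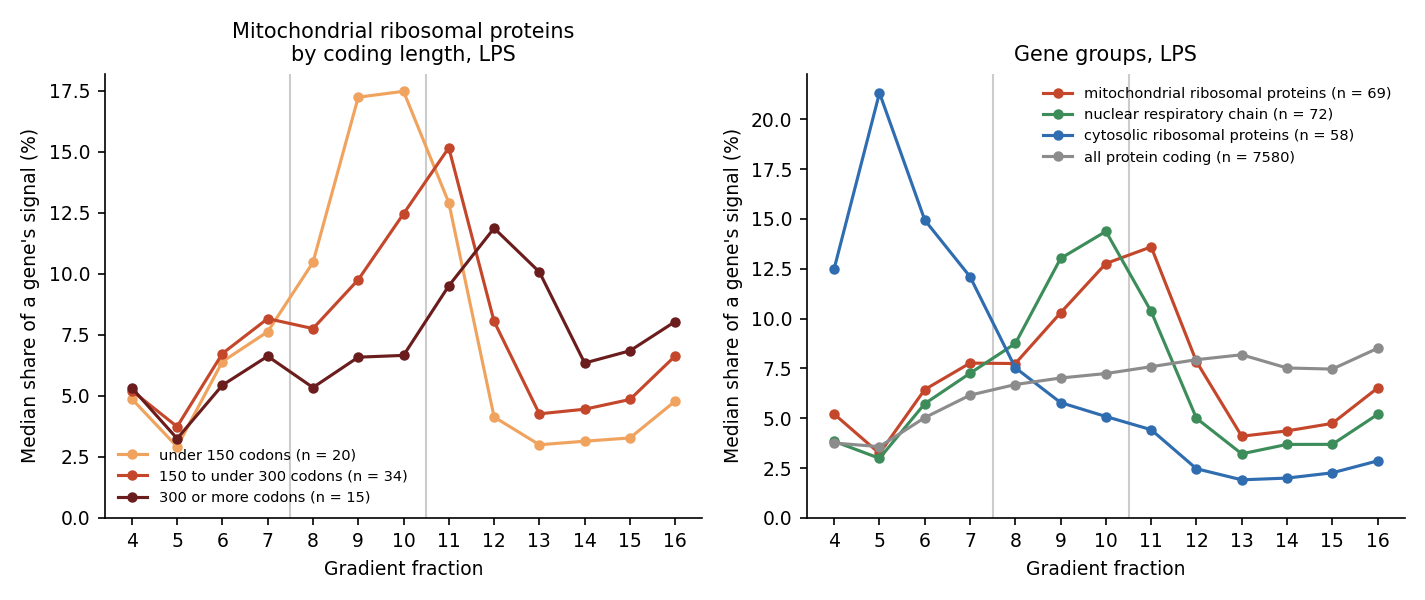
Median share of a gene's signal (percent, vertical) in each gradient fraction (4 to 16, horizontal) in LPS, each point the mean of 4 gradients and grey lines marking the borders of monosomes, light and heavy polysomes. Left, mitochondrial ribosomal protein mRNAs by coding length, with tops at fraction 10 under 150 codons, 11 at 150 to under 300 codons and 12 at 300 or more codons; right, gene groups, with cytosolic ribosomal protein mRNAs highest in fraction 5 and mitochondrial ones in fraction 11.

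Within the group, the order along the gradient followed coding length, which ran from 65 to 442 codons with a median of 192. The 20 mRNAs under 150 codons had 45.6% ± 1.26 of their signal in light and 31.5% ± 4.46 in heavy polysomes in LPS. The 34 of 150 to under 300 codons had 44.2% ± 4.14 in heavy polysomes, and the 15 of 300 or more codons had 56.3% ± 1.83 there and 18.8% ± 1.22 in light polysomes. Other protein coding mRNAs of the same length classes had 28.5% ± 2.11, 48.1% ± 2.51 and 60.7% ± 1.28 in heavy polysomes, from short to long. Spearman's rho between codons and heavy share over the 69 mRNAs was 0.699 to 0.848 over the 4 LPS gradients (median 0.760). It was 0.411 to 0.715 over the LPS+ET gradients (median 0.555, or 0.579 without LUL16) and 0.487 to 0.679 over the LPS+ET+KU gradients (median 0.611). Over all protein coding genes it was 0.428 to 0.605, 0.371 to 0.502 and 0.451 to 0.576. These are descriptions across genes of the same libraries, and genes are not independent replicates.

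The lowest heavy share in LPS was that of Mrpl33, the shortest mRNA of the group with 65 codons. Its heavy shares were 13.4%, 10.8%, 14.5% and 13.4% in the LPS gradients, 19%, 33%, 19% and 16% in LPS+ET and 27.8%, 23.1%, 22.5% and 19.2% in LPS+ET+KU (pools LUL15 to LUL18 in order). All 8 etoposide gradients were above all LPS gradients, and the highest value was that of LPS+ET of LUL16, the gradient with thin fractions. The next lowest in LPS were Mrpl42 (17.5% ± 0.89, 142 codons), Mrpl52 (19% ± 2.0, 121 codons), Mrps33 (19.2% ± 3.94, 106 codons) and Mrpl53 (21.2% ± 2.02, 118 codons), all specific to mitochondrial ribosomes. The highest was Mrpl3 (348 codons), a conserved protein near the site of peptide bond formation, with 65.9%, 65.8%, 69.8% and 75.5% in LPS. It was followed by Mrps31 (66.5% ± 4.32, 384 codons), Mrps27 (66.0% ± 3.87, 415 codons), a pentatricopeptide repeat protein, Mrps5 (64.0% ± 11.3, 432 codons) and Mrpl39 (61.8% ± 2.05, 336 codons). Length was not the whole order. Mrpl41, with 135 codons, had 49.3% ± 11.3 in heavy polysomes, and Mrps30, with 442 codons the longest, had 54.3% ± 3.36.

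**Figure D2:**
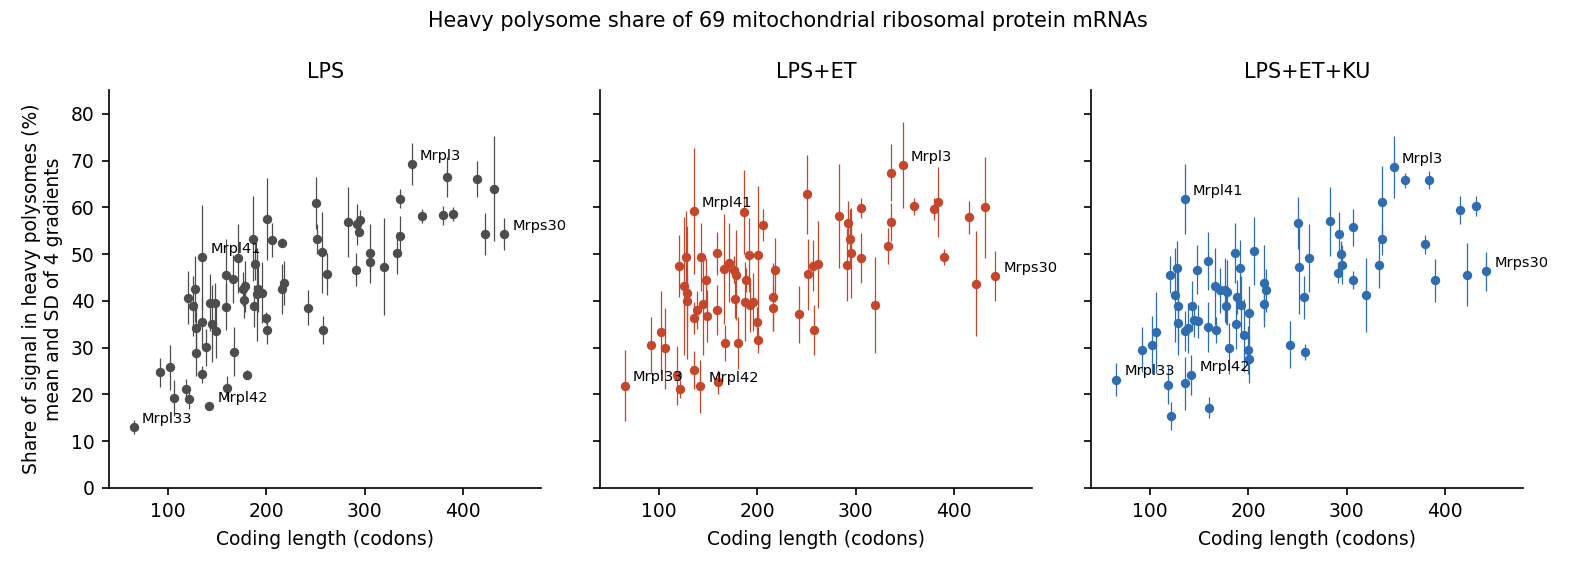
Share of signal in heavy polysomes (percent, mean and SD of 4 gradients, vertical) against coding length (codons, horizontal) for 69 mitochondrial ribosomal protein mRNAs in each treatment. Mrpl33 (65 codons) is lowest in LPS at 13.0% and Mrpl3 (348 codons) highest at 69.3%, while Mrpl41 lies above mRNAs of similar length at 49.3%.

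The classes were then compared within gradients on summed counts, over all treatments and with the gradient as a term. In these contrasts a log2 value is a difference in CPM between classes, relative to the other mRNAs there. Between light polysomes and monosomes 44 of 69 passed an adjusted p of 0.01, 32 higher in light polysomes and 12 lower (45.8% of all genes tested passed). The median log2 difference was 0.28, against -0.01 for all genes. Mrpl36 (log2 1.43, SE 0.12, adjusted p = 9.21e-13), Mrps14 (log2 1.34, SE 0.13) and Mrps12 (log2 1.23, SE 0.10), a protein of the decoding centre, were higher in light polysomes. Mrpl24 (log2 -0.99, SE 0.09), Mrpl45 (log2 -0.79, SE 0.09) and Mrps30 (log2 -0.69, SE 0.09) were lower there.

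Between heavy and light polysomes 52 of 69 passed, 12 higher in heavy polysomes and 40 lower (68.7% of all genes passed), with a median of -0.43 against 0.05 for all genes. The most negative were Mrpl33 (log2 -2.61, SE 0.08, adjusted p = 4.12e-26) and Mrpl42 (log2 -2.41, SE 0.08). The most positive were Mrpl3 (log2 0.99, SE 0.11) and Mrpl39 (log2 0.97, SE 0.11). Between heavy polysomes and monosomes 41 passed, 14 higher and 27 lower in heavy polysomes (69.9% of all genes), with a median of -0.21 against 0.09. This last balance depends on the scaling. With equal weight for each fraction 33 were higher and 13 lower, and the medians became 0.30 for the group and 0.61 for all genes. With DESeq2 they were -0.34 and -0.71, the other order. That fit had no expression filter, so its medians cover more genes of low count. With RLE size factors on the filtered genes edgeR gave -0.31 and -0.0016, and without the filter -0.13 and 0.018. In both of these the group stayed below all genes, and the cause of the other order was not tested. The adjusted p-values are those of edgeR's quasi-likelihood test with Benjamini-Hochberg adjustment over all genes, here and below, with limma for the equal weights.

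LPS+ET was compared with LPS for the level of each mRNA in the gradient, relative to the other mRNAs there. Total mRNA, which the study sequenced separately, was not used here. A change of mRNA level and a change of ribosome association can therefore not be told apart in these sums. The sums also weight each fraction by the depth of its library, which differed between treatments. Monosomes held 1548206 to 2850390 counts per gradient in LPS, 1397768 to 1857161 in LPS+ET and 2702618 to 6102279 in LPS+ET+KU. In LPS+ET+KU the group took 0.418% to 0.437% of monosome counts and 0.694% to 0.792% of light polysome counts. The part of this weighting in single calls was not tested. The paper also reports that etoposide lowered the assembly of polysomes globally, which relative levels do not show. On counts summed over fractions 4 to 16, 1 of the 71 fitted mRNAs passed an adjusted p of 0.01, against 12.7% of all 12755 genes tested (7.88% higher and 4.81% lower). This was Mrpl17, a large subunit protein with a bacterial counterpart, counted at chr7:105809581 on the - strand of GRCm38 in its 3′ untranslated exon. Its levels were 74.4, 81.9, 52.6 and 71.8 CPM in LPS, 39.1, 40.3, 29.6 and 42.0 in LPS+ET and 48.7, 53.6, 40.5 and 60.4 in LPS+ET+KU (pools LUL15 to LUL18). Every LPS+ET gradient was below every LPS gradient, while LPS+ET+KU overlapped both. The log2 change after etoposide was -1.01 (SE 0.20, adjusted p = 0.00259), and with the pool as a block it was -1.01 (adjusted p = 2.7e-05). A predicted gene, Gm15645, lies on the opposite strand, and whether the counting kept the strands apart is not given in the sources used here. Without the LPS gradient of LUL16 or the LPS+ET gradient of LUL17 no mRNA of the group passed, and without LPS+ET or LPS+ET+KU of LUL16 there were 3.

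The next by p did not pass. Mrpl45 (log2 0.59, SE 0.15, adjusted p = 0.0119) had 195, 174, 166 and 180 CPM in LPS, 340, 237, 313 and 281 in LPS+ET and 251, 299, 254 and 238 in LPS+ET+KU. All 8 etoposide gradients were above all LPS gradients. Mrps31 (log2 0.87, SE 0.22, adjusted p = 0.0134), a small subunit protein that bacteria lack, had 9.63, 9.57, 8.35 and 7.49 CPM in LPS and 20.8, 9.99, 17.6 and 20.8 in LPS+ET, the low value being that of LUL16, the gradient with thin heavy fractions. Mrps6 (log2 1.09, SE 0.32, adjusted p = 0.0276) had 49.5, 50.7, 25.8 and 28 CPM in LPS and 128, 87, 58 and 85 in LPS+ET. Mrpl18 (log2 -0.54, SE 0.17, adjusted p = 0.0331) completes the first 5.

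**Figure D3:**
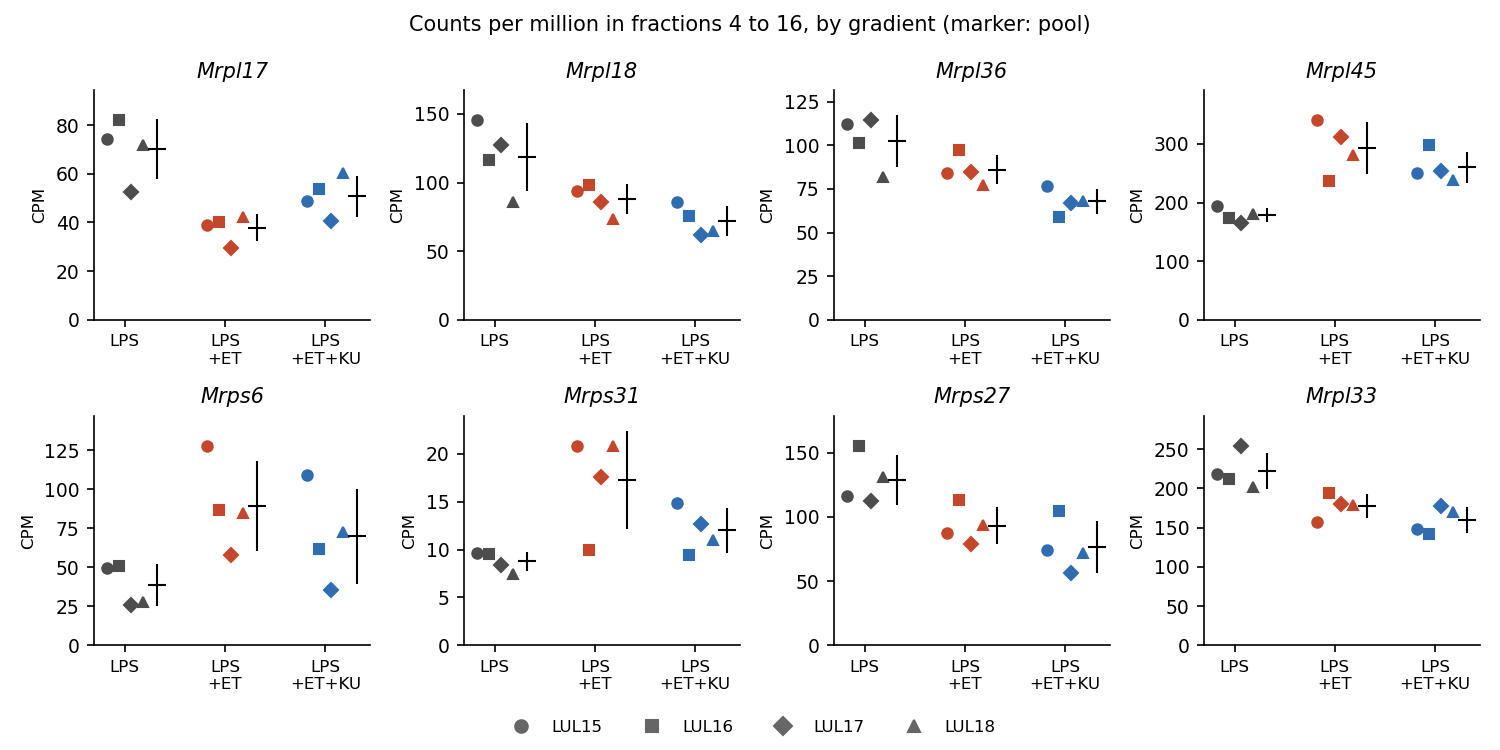
Level in CPM (vertical, from 0) of 8 mitochondrial ribosomal protein mRNAs in fractions 4 to 16 of each gradient, by treatment (horizontal), with marker shape for the pool and bars for mean and SD of 4 gradients. Mrpl17 lies at 52.6 to 81.9 in LPS and at 29.6 to 42.0 in LPS+ET, and Mrpl45 at 166 to 195 and 237 to 340.

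Gradients of the same pool deviated together, and a fit blocked on the pool called 9 of the 71, 4 higher and 5 lower (26.7% of all genes). Higher were Mrpl45, Mrps31, Mrps6 and Mrpl10, of which Mrpl10 had 110 ± 12.0 CPM in LPS and 168 ± 28.6 in LPS+ET (log2 0.49, adjusted p = 0.00469 with the block). Lower were Mrpl17, Mrpl18, Mrpl55, Mrps27 and Mrpl12, of which Mrps27 had 129 ± 19.5 and 93.3 ± 14.5 CPM (log2 -0.58, adjusted p = 0.00143 with the block). The median log2 change of the 71 was -0.18, with 49 of them negative, against 0.03 for all genes, 48.4% of which were negative. With equal weight for each fraction the medians were -0.07 and 0.07. The CPM of all LPS+ET gradients lay outside the range of the LPS gradients for 10 of the 71 (14.1%, 7 higher and 3 lower), against 26.4% of all genes. For such counts and for those with the block, here and below, no split by direction was taken over all genes. Their splits are no result about the group.

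The comparison of LPS+ET+KU with LPS+ET asks what of the etoposide response depends on ATM. None of the 71 passed (0.455% of all genes did), and none passed with DESeq2. At an unadjusted p under 0.05 there were 4. For counts at an unadjusted p, here and below, no share over all genes was taken, and they are no result about the group. The smallest p-values belonged to Mrpl51 (log2 -0.57, SE 0.23, adjusted p = 0.218), Mrps31 (log2 -0.54, SE 0.22, adjusted p = 0.246), Mrpl36 (log2 -0.35, SE 0.15), Mrpl16 (log2 -0.63, SE 0.28) and Mrpl17 (log2 0.43, SE 0.20). With the pool as a block 1 passed (6.36% of all genes did), Mrpl24 (log2 0.51, adjusted p = 0.00956). With the same block Mrpl24 passed in none of the single classes, and the part of library depth in this sum was not tested. The levels of Mrpl24 were 135, 139, 81.1 and 82.0 CPM in LPS+ET and 204, 183, 118 and 117 in LPS+ET+KU, higher with KU55933 within each of the 4 pools although the groups overlapped. The median log2 difference of the 71 was -0.16, with 54 negative, against 0.04 for all genes. With equal weight for each fraction the medians were -0.13 and 0.04. Only Mrpl36 had gradients that did not overlap (8.26% of all genes did not).

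Against LPS, the LPS+ET+KU gradients had 2 of 71 mRNAs past the threshold, both lower (10.7% of all genes passed, 6.25% higher and 4.42% lower). Mrpl18, counted at chr17:12911345 on the - strand, had 145, 116, 127 and 86.0 CPM in LPS, 94.1, 98.2, 86.2 and 73.3 in LPS+ET and 85.9, 75.9, 62.0 and 64.6 in LPS+ET+KU. The log2 difference was -0.84 (SE 0.17, adjusted p = 0.00370). Mrpl36, counted at chr13:73331759 on the + strand, had 112, 101, 114 and 81.7 CPM in LPS, 84.1, 97.3, 84.8 and 77.3 in LPS+ET and 76.8, 59.0, 67.1 and 68.2 in LPS+ET+KU. Its log2 difference was -0.71 (SE 0.15, adjusted p = 0.00568). For both mRNAs the LPS and LPS+ET+KU gradients did not overlap, for Mrpl18 by the narrowest margin. This contrast shares its LPS gradients with the etoposide contrast, so the Mrpl17 values recur in it (log2 -0.58, SE 0.20, adjusted p = 0.0493). With the pool as a block 17 passed, 2 higher (Mrpl10 and Mrps6) and 15 lower (28.1% of all genes). The lower ones included Mrpl18, Mrpl36, Mrps27, Mrpl33, Mrpl17 and Mrpl12. Leaving out single gradients gave 0 to 4 calls, with 0 without LPS of LUL15, LUL16 or LUL17 and without LPS+ET+KU of LUL17 or LUL18. There was 1 without LPS+ET+KU of LUL15, and there were 4 without LPS+ET of LUL16. The median log2 difference of the 71 was -0.24 against 0.09 for all genes, and 16 had gradients that did not overlap (22.5%, 2 higher and 14 lower, against 26.3% of all genes). With equal weight for each fraction the medians were -0.11 and 0.13.

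**Figure D4:**
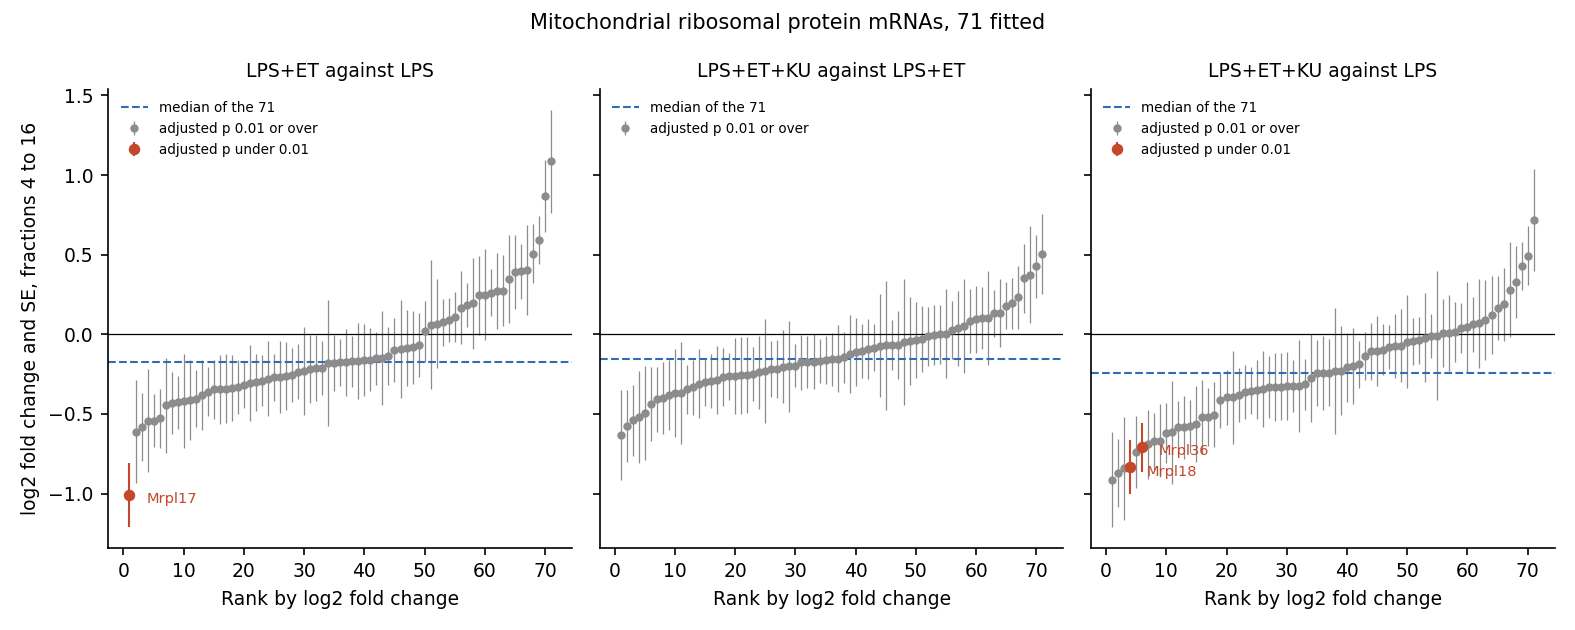
log2 fold change with SE (vertical) of the 71 fitted mitochondrial ribosomal protein mRNAs, ranked (horizontal) within each of the 3 treatment contrasts, red where the adjusted p was under 0.01. Mrpl17 in LPS+ET against LPS and Mrpl18 and Mrpl36 in LPS+ET+KU against LPS are red, and the dashed medians lie at -0.18, -0.16 and -0.24.

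Within single classes the etoposide contrast called few mRNAs of the group. In monosomes 1 of 68 passed (9.52% of all genes), Mrps14 of the small subunit, with 74.1, 58.6, 64.6 and 46.8 CPM of the monosome counts in LPS and 32.5, 21.5, 22.9 and 23.7 in LPS+ET (log2 -1.22, SE 0.20, adjusted p = 0.000698). The groups did not overlap. With the pool as a block 14 passed (24.6% of all genes), 3 higher and 11 lower, and without LPS+ET of LUL16 there were 2. In light polysomes 2 of 69 passed (10.6% of all genes). Mrpl17 had 92, 118, 67 and 82 CPM in LPS and 48, 49, 28 and 43 in LPS+ET (log2 -1.22, SE 0.23, adjusted p = 0.00174). Mrpl45 had 132, 120, 125 and 117 CPM in LPS and 238, 257, 255 and 216 in LPS+ET (log2 0.84, SE 0.17, adjusted p = 0.00254), again without overlap. Without LPS of LUL15, LUL16 or LUL18 the call of Mrpl45 was lost and that of Mrpl17 was kept. The block gave 12 in light polysomes (25% of all genes).

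In heavy polysomes 1 of 71 passed (9.69% of all genes), Mrps31, with 12.0, 12.1, 12.3 and 9.30 CPM in LPS and 26.7, 18.5, 19.8 and 24.4 in LPS+ET (log2 0.89, SE 0.20, adjusted p = 0.00592). All LPS+ET gradients were above all LPS gradients. The call was sensitive to single gradients: no mRNA passed without any 1 of the 4 LPS gradients, without the LPS+ET gradients of LUL15, LUL17 and LUL18 in turn or without LPS+ET+KU of LUL17, while 2 passed without the LPS+ET gradient of LUL16 and without LPS+ET+KU of LUL16 or LUL18. The block gave 6 (20.6% of all genes). In LPS+ET+KU against LPS+ET none passed in monosomes, light or heavy polysomes (0.213%, 0.292% and 0.572% of all genes). At an unadjusted p under 0.05 there were 4, 6 and 3. With the block 3 passed in light polysomes (5.35% of all genes), all lower with KU55933: Mrps24, Mrpl33 and Mrpl42.

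A change of distribution, apart from a change of level, was tested as the change of the heavy to monosome ratio. It passed for 1 of 69 in LPS+ET against LPS (5.1% of all genes), Mrpl24, a protein near the exit of the peptide tunnel. Its ratio of heavy to monosome CPM was 1.22, 1.67, 1.22 and 1.18 in LPS, 0.884, 0.417, 0.570 and 0.740 in LPS+ET and 0.79, 0.81, 1.1 and 0.82 in LPS+ET+KU. All 8 etoposide gradients were below all LPS gradients. The log2 change of the ratio was -1.09 (SE 0.22, adjusted p = 0.00106). The counted end of Mrpl24 (chr3:87923434, + strand, 3′ untranslated exon) overlaps Rrnad1 on the opposite strand. Without the gradient term 0 passed, without the LPS gradient of LUL16 also 0, and without the LPS+ET gradient of LUL16 there were 4, or 2 without LPS+ET+KU of that pool. In the other direction Mrps14 (log2 1.20, SE 0.34, adjusted p = 0.0161) and Mrps12 (log2 0.87, SE 0.26, adjusted p = 0.0219) did not pass. In LPS+ET+KU against LPS+ET none passed (0.181% of all genes), with 7 at an unadjusted p under 0.05.

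The heavy share itself was tested with limma on a logit scale after scaling each fraction to CPM. This follows the RiboLoad of the study, the share of an mRNA's reads in heavy polysomes, but with a scaling of the fractions that the definition of RiboLoad does not name. It passed for 0 of 69 in either contrast (0.325% and 0% of all genes), with 10 and 5 at an unadjusted p under 0.05. With the counts as deposited it was 0 in both contrasts as well.

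Grouped by length, the median heavy share of mRNAs under 150 codons was 31.5% ± 4.46 with LPS alone, 36.4% ± 4.79 with etoposide (38.1% ± 4.07 without LUL16, n = 3) and 34.3% ± 3.79 with etoposide and KU55933. Within pools LUL15 to LUL18 this median was higher after etoposide by 0.277, 6.14, 8.66 and 4.19 percentage points, 4.81 on average, or 4.37 without LUL16 and 3.53 without LUL17. The other protein coding mRNAs of that length moved by 3.74 points on average, upward in 4 of 4 pools, and the difference between these shifts was not tested. Taken as the median of the changes of single mRNAs, the shift was 5.39 points on average and 3.30 without LUL17, the pool with the largest change. The median share of those of 300 or more codons was 56.3% ± 1.83, 57.3% ± 2.62 and 53.4% ± 2.81, higher after etoposide in 2 of 4 pools. For this class the direction depended on the measure. After etoposide the median moved by 0.921 points on average, but the median of single changes was -1.68, positive in 1 of 4 pools. With KU55933 the 2 measures were -3.87 and -1.16 points. From 150 to under 300 codons they were 0.553 and -0.634 after etoposide. With KU55933 the median heavy share of all 69 was lower than with etoposide alone in 4 of 4 pools, by 0.986 to 5.77 percentage points. The mean change was -3.39 points, against 0.667 for all protein coding mRNAs, whose median was higher in 3 of 4 pools. Other protein coding mRNAs moved by -0.984, -1.18 and 1.08 points on average in the length classes, from short to long. These group values are descriptions with no test.

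**Figure D5:**
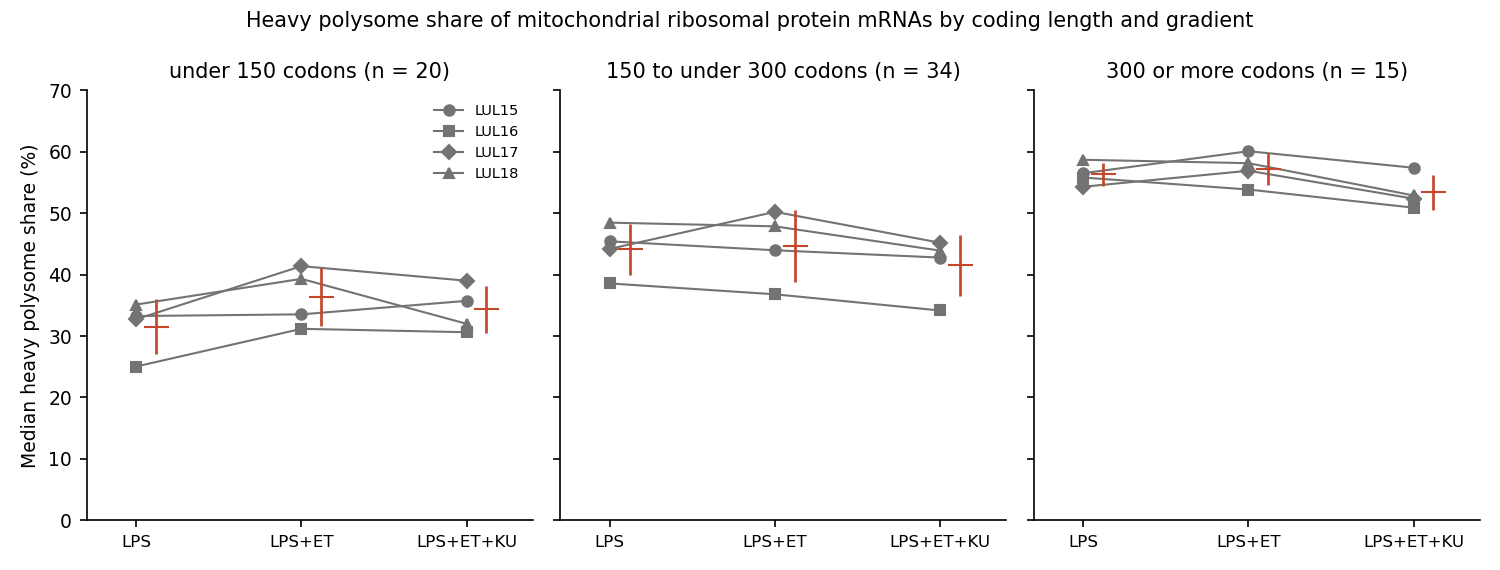
Median heavy polysome share (percent, vertical, from 0) of mitochondrial ribosomal protein mRNAs in 3 classes of coding length, by treatment (horizontal), with grey lines joining gradients of a pool and red bars for mean and SD of 4 gradients. Under 150 codons each pool lies higher in LPS+ET than in LPS, with means of 36.4% and 31.5%, while the class of 300 or more codons stays between 50.9% and 60.1%.

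The whole profile over 13 fractions was tested in 1 fit of 104 libraries per contrast. It treats the fractions of a gradient as separate libraries, so its p-values are too small. In LPS+ET against LPS 14 of 69 passed (31% of all genes). With the pool as a block 24 passed (41.7% of all genes). Without any 1 of the LPS gradients 6 to 8 passed, and without LPS+ET of LUL18 there were 4. The smallest p-values were those of Mrpl17 (adjusted p = 5.62e-10), Mrps6 (adjusted p = 4.52e-07), Mrps27, Mrps31 and Mrps30. When the level was taken out and only the interaction of treatment and fraction was tested, 0 passed. The share over all genes was not taken for that test, so its count is no result about the group. In LPS+ET+KU against LPS+ET 0 passed (8.01% of all genes), with 18 at an unadjusted p under 0.05, and 6 with the block (18.3%). Leaving out LPS+ET of LUL16 gave 6 and leaving out LPS+ET+KU of LUL17 gave 10.

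Other genes of the pathway were read from fixed lists on fractions 4 to 16, where 12.7% of all genes passed in LPS+ET against LPS and 10.7% in LPS+ET+KU against LPS. Lists with 1 call are small or hold a share of calls near or below that of all genes, and their counts are no result about the list. Of 11 regulators of mitochondrial transcription and biogenesis 4 passed in LPS+ET against LPS. Polrmt, the mitochondrial RNA polymerase (log2 1.1, SE 0.17, adjusted p = 0.000375), Esrra, an orphan receptor that drives mitochondrial genes (log2 1.40, SE 0.25), and Gabpb1, a subunit of an ETS-type activator (log2 0.93, SE 0.22), were higher. Nrf1, for which the NRF1-type motif is named, was lower (log2 -0.93, SE 0.19, adjusted p = 0.00298). It was lower also in LPS+ET+KU against LPS (log2 -0.97, SE 0.19), where Pprc1, a coactivator, was lower too (log2 -1.63, SE 0.37). A link between these levels and the promoter motifs was not tested. Of 7 mitoribosome proteins without an Mrpl or Mrps symbol 1 passed, Ict1, a peptidyl-tRNA hydrolase built into the large subunit, which was lower (log2 -1.67, SE 0.20, adjusted p = 5.93e-05). Of 16 mitochondrial translation factors 1 passed, Mtfmt, which formylates the initiator tRNA (log2 -1.14, SE 0.24). Of 24 assembly and rRNA factors 1 passed, the rRNA methyltransferase Mrm1 (log2 -0.98, SE 0.23).

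Of 73 respiratory chain genes 1 passed in LPS+ET against LPS, Cox6b2, a cytochrome oxidase subunit best known from testis (log2 3.45, SE 0.27). In LPS+ET+KU against LPS it passed again (log2 3.05, SE 0.26) and Uqcrb was lower (log2 -0.80, SE 0.16). Of 75 cytosolic ribosomal protein genes 1 passed, Rps27l, a known p53 target (log2 1.17, SE 0.19). In LPS+ET+KU against LPS+ET 0 passed in each of these 6 lists, and Cdkn1a differed by log2 -0.12. The median log2 change after etoposide was -0.17 for the cytosolic ribosomal proteins and 0.03 for the respiratory chain, against -0.18 for the mitochondrial ribosomal proteins.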

How the data were processed

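The authors made 3′ end libraries from equal RNA concentrations of each fraction, removed PCR duplicates by random barcode bases and aligned the tags to GRCm38. The deposited values are counts per Ensembl gene, without normalization (TopHat2 2.0.12, HTSeq and DESeq2 1.6.3 are named in the submitters' processing notes, without their roles). All 19600 genes and the 156 libraries of fractions 4 to 16 were used. A fraction 17 library was left out of the comparisons. Of 157 columns, 79 matched a single labelled sample and 78 only a treatment and fraction, so gradients carry pool names. The replicates are separate gradients, and the p-values measure the spread between them, except in the whole profile fit, where fractions count as separate libraries. In treatment contrasts without the pool block, differences between pools are part of that spread.

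Counts were summed per gradient or class and tested with edgeR 4.0.16 in R 4.3.3 (TMM, default expression filter, quasi-likelihood test, all 12 gradients, Benjamini-Hochberg over all genes, called under 0.01, the threshold of the study). SE is the log2 change divided by the root of F. Class contrasts used 36 libraries with the gradient as a term, and RiboLoad limma 3.58.1. DESeq2 1.42.0, RLE factors, no filter, equal weight per fraction (log2 of CPM plus 1), a pool block, other thresholds and leaving out gradients were alternatives. Each gradient's deviations from its treatment mean were correlated with those of other gradients: r was 0.369 to 0.897 in 12 same-pool pairs (median 0.690), all over 0.1, and -0.673 to 0.412 in 36 others, so the pools, known from column names only, were taken to pair gradients. Scripts were tested on simulated data.

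The genes and lists were chosen with earlier results of these data known. Named genes were the 5 highest and 3 lowest by CPM, those called or else the 5 with the smallest p, the 5 with the highest and lowest heavy share, a fixed set (Mrpl12, Mrps12, Mrps18a to c, Mrps30, Mrps36, Mrpl41) and called list genes. Mrpl37 (motif example), Mrps24, Mrpl55 and Mrpl10 (blocked calls) and Rps6 were added after values were seen. Coordinates are those of the deposited table plus 1, checked against gene starts, and codons are those of a GRCm38 annotation.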

Additional observations from a re-analysis of the deposited data

Results flagged for a closer look

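In heavy polysomes the mitochondrial ribosomal protein genes took 0.2767% of the counts in the LPS+ET gradient of LUL16, against 0.5769% to 0.5835% in the other LPS+ET gradients. The gap was 0.9788 of the group's range, over Dixon's 95% critical value for 4 samples. In this gradient fractions 11 and 12 held 54686 and 33476 counts. Mrpl4, a protein that lines the peptide tunnel, had 140.5 CPM in the same gradient against 237.5 to 245.8 CPM in the other 3 (0.9207 of the range). Of 99 groups of 4 examined, 2 were over the critical value, where chance gives about 1 in 20.

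The heavy to monosome ratio of Mrpl24 differed between LPS+ET and LPS by log2 -1.09 (SE 0.22, adjusted p = 0.00106, edgeR), a test of the difference between the class contrasts of the treatments. The ratio was lower in 4 of 4 LPS+ET gradients than in any LPS gradient.

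The fraction 17 library of LPS, which lies beyond the classes compared, held 777 counts, of which 8 (1.03%) came from mitochondrial ribosomal protein genes. A count of 0 there would allow a share of up to 0.386%, for counting error only.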

How the results depend on the processing

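Counts of called mitochondrial ribosomal protein mRNAs are given in the order LPS+ET against LPS and LPS+ET+KU against LPS for fractions 4 to 16, then monosomes, light and heavy polysomes in LPS+ET against LPS, then the heavy to monosome ratio; as reported they were 1, 2, 1, 2, 1 and 1. At an adjusted p under 0.05 they were 5, 11, 8, 8, 6 and 7, with 1 in light polysomes for LPS+ET+KU against LPS+ET and 22 and 2 for the whole profile of the etoposide and KU55933 contrasts. With the replicate block (pool) they were 9, 17, 14, 12 and 6 without a value for the ratio, whose fit already holds the gradient. The block gave 1 for LPS+ET+KU against LPS+ET in fractions 4 to 16, 3 in its light polysomes, and 24 and 6 for the profiles, and it changed no RiboLoad call. DESeq2 gave 4, 8, 6, 6, 3 and 3, with 1 in light polysomes for LPS+ET+KU against LPS+ET. A fit of only the 8 gradients compared gave 1 for LPS+ET+KU against LPS. Without the expression filter light polysomes had 1, heavy polysomes 0 and the ratio 3, without the gradient term the ratio had 0, and the interaction alone gave 0 for the profile. Shares over all genes were taken only for the fits as reported and for those with the block. The counts under the other settings, and those on leaving out gradients, are no result about the group.

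Leaving out 1 gradient gave 0 to 3, 0 to 4, 1 to 2, 1 to 3, 0 to 2 and 0 to 4 in the same order. It gave 40 to 49 for light polysomes against monosomes, 49 to 58 for heavy against light, 38 to 45 for heavy against monosomes, 4 to 12 for the etoposide profile and 0 to 10 for the KU55933 profile, with 10 without LPS+ET+KU of LUL17 and 6 without LPS+ET of LUL16. The other contrasts of LPS+ET+KU with LPS+ET and RiboLoad stayed at 0 to 0.

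Among the mRNAs named, signs reversed in light polysomes against monosomes: with equal weight per fraction Mrpl52 (0.30), Mrpl39 (0.37) and Mrps31 (0.45), without the filter Mrpl39 (0.017), and on leaving out single gradients Mrpl39 (range -0.13 to 0.013, positive without LPS+ET+KU of LUL17) and Mrps5 (range -0.035 to 0.074, negative without LPS of LUL16). Among values of single named mRNAs 882 kept direction and side of the threshold, 55 lost the call, 32 gained it and 6 reversed. The medians of the group in the 3 treatment contrasts on fractions 4 to 16 kept their sign in the 54 alternatives run, at -0.07, -0.13 and -0.11 with equal weights. In heavy polysomes against monosomes the median of the group reversed with equal weights, from -0.21 to 0.30. Leaving out each pool for the heavy shares by length was added after seeing the data. Apart from fewer gradients, fewer counts or a looser threshold, the cause of these shifts was not tested. Depth limits Mrps18b, Mrps21, Mrpl23 and Mrps36, with 9 to 53 counts in all.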
